A study of Mus musculus with 4 samples.

Results

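The genes that encode the proteins of the cytosolic ribosome were examined in the prefrontal cortex (PFC) of mice with and without knockdown of *Ash1L*. Members were chosen by symbol alone: Rpl or Rps with a number (with a final a or x where the rule allows it), Rplp0, Rplp1, Rplp2 and Rpsa, leaving out the Rps6k kinases and pseudogene symbols. The rule found 76 of 23420 symbols, of which 46 encode proteins of the large subunit and 30 proteins of the small subunit. C57BL6/J mice received a GFP-AAV9 injection (control, 2 samples) or an shRNA_ASH1L-AAV9 injection (*Ash1L* shRNA, 2 samples). According to the methods of the study, a U6 promoter drove the hairpin in a GFP-tagged AAV, virus was put into the medial PFC on both sides at 5 weeks of age, punches with GFP fluorescence were taken, and tissue of 3 mice was pooled as 1 sample. The series description differs, with 3 knockdown and 2 control mice of 6 to 8 weeks, and the study's text calls the control virus a scrambled shRNA AAV where the labels say GFP. Whole lysate was sequenced, so infected and uninfected cells of every type were mixed, and fewer cells of a type and less RNA per cell cannot be told apart.

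Each ribosome is built from ribosomal RNA and a full set of ribosomal proteins, and cells usually keep the mRNAs of these proteins at related levels. The large subunit joins amino acids and carries the stalk that recruits elongation factors, whereas the small subunit reads the mRNA. Many of these mRNAs begin with a C followed by a run of pyrimidines, the 5′ terminal oligopyrimidine (TOP) motif, through which mTORC1 and Larp1 set how strongly they are translated. RNA-seq measures the mRNA and not its translation. ASH1L is a histone methyltransferase of H3K4 and H3K36, and the comparison asks which mRNAs differ in amount when it is reduced.

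Start sites of 6 members are shown, 4 with a TOP-like start and 2 without. The windows run from 20 bases before to 10 bases from the annotated start (RefSeq, GRCm38.p6, 5′ to 3′ on the gene's own strand), with capitals for the pyrimidine run that begins at the start with a C and 4 or more C or T. *Rps18* is shown as the one member called higher, *Rps6* as the S6 kinase substrate, *Rplp2* as a stalk protein and *Rpl28* as a further match, and *Rpl36a* and *Rpsa*, both called lower, as windows without a match. Their positions are chr17:33955656-33955685 (minus strand), chr4:86857358-86857387 (minus), chr7:141447631-141447660 (plus), chr7:4792945-4792974 (plus), chrX:134585634-134585663 (plus) and chr9:120127746-120127775 (plus).
Rps18: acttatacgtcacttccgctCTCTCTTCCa
Rps6: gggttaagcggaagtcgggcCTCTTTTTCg
Rplp2: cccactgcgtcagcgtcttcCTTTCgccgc
Rpl28: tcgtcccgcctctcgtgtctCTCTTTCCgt
Rpl36a: aggaagtgcacccaggcaccgcctataaac
Rpsa: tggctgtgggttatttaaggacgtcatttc

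RefSeq promoters were matched for 56 of the 76 members. The start was found in 13 of the 56 (23.2%) and in 3.01% of all 27025 genes with a promoter, read on the gene's strand at the annotated first base only. The 13 were *Rpl14*, *Rpl15*, *Rpl28*, *Rpl35*, *Rpl35a*, *Rpl38*, *Rplp2*, *Rps6*, *Rps10*, *Rps15a*, *Rps18*, *Rps21* and *Rps27*. A start annotated a few bases away from the one used would be missed, so a window without a match says only that these letters are not at this base. Among members with usable counts, the median log2 fold change was 0.03 for the 12 with the start (−0.16 in *Rps6* to 0.27 in *Rps18*) and 0.02 for the 41 without it.

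The targeted gene was lower in both knockdown samples. *Ash1l* was at 245 and 290 CPM (counts scaled to library size and by TMM) in control 1 and 2 and at 216 and 138 CPM in *Ash1L* shRNA 1 and 2 (log2 fold change −0.60, SE 0.22, adjusted p = 0.275 by edgeR's quasi-likelihood test). Total counts ran from 14251190 to 35764874 per sample, and control 1 was the shallowest. Neuron markers were present in every sample. *Slc17a7*, the vesicular glutamate transporter of cortical excitatory neurons, ran from 754 to 1069 CPM, and *Gad1*, the GABA-synthesizing enzyme, from 232 to 280 CPM. Some cell type markers differed between the groups, where DOWN (unadjusted P under 0.05 and at least 1.2-fold lower) held 8.28% of all genes and UP, its counterpart, 8.61%. The summed level of 8 astrocyte markers was 5456 and 5772 CPM in controls and 4423 and 3271 CPM in *Ash1L* shRNA samples, with 5 of 8 DOWN, and that of 8 excitatory neuron markers was 2482 and 2934 CPM against 2273 and 1893 CPM, with 4 of 8 DOWN. Of 8 inhibitory neuron markers 3 were DOWN, and of 8 oligodendrocyte markers 1 was DOWN. The 8 microglia and macrophage markers summed to 830 and 849 CPM in controls and to 1100 and 437 CPM in *Ash1L* shRNA 1 and 2, with none called. The 8 leukocyte markers were low throughout (42.8, 77.2, 31.7 and 16.8 CPM) with 6 DOWN, 8 endothelial markers had 1 UP, 8 meningeal fibroblast markers had 3 UP and 1 DOWN, and *Hba-a1* and *Hba-a2*, the red blood cell globins, were at 0 in all 4 samples. The multiple-mapping setting of the counting was not known, so these 0 counts do not show that blood was absent. Of the 5 red blood cell markers listed, 3 had a symbol in the data. The third, *Alas2*, is an enzyme of heme synthesis in red blood cell precursors. It was at 8.57 and 8.18 CPM in controls and 7.01 and 6.85 CPM in *Ash1L* shRNA samples, without a call. The part of these shifts in cell type markers in the ribosomal protein values was not tested.

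Ribosomal protein mRNA took a share of all counts that overlapped between the groups. The share was 1.27% in control 1 and 1.18% in control 2, and 1.25% and 1.28% in *Ash1L* shRNA 1 and 2 (95% Wilson interval 1.27 to 1.28% in control 1, for counting error only). Summed over the members, the level was 12846 and 11991 CPM in controls and 12563 and 12376 CPM in *Ash1L* shRNA samples. Both knockdown samples lay between the controls. The means were 12419 ± 604 CPM (SD, n = 2) and 12470 ± 132 CPM (SD, n = 2), so that the difference was far smaller than the spread between the controls. With 2 samples a group an exact permutation test cannot give a p below 0.333, and none is given.

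Single members likewise stayed close to their control level. The filter on low counts kept 75 of 76 members among 16232 genes tested. UP and DOWN were called at an unadjusted P under 0.05 and a change of at least 1.2-fold. One member was UP, where 8.61% of all genes were, and 3 were DOWN, where 8.28% of all genes were. With all 4 samples, no member passed an adjusted p of 0.05 (smallest 0.262), and 0.00616% of all genes did by edgeR's quasi-likelihood test (Benjamini-Hochberg). DESeq2 likewise passed no member. With edgeR's test 4 of the 75 members had an unadjusted p under 0.05, against 2746 of all 16232 genes. The fold change was above 0 in 42 members and below 0 in 33, with a median log2 fold change of 0.02 (quartiles −0.05 and 0.09) against −0.00 for all genes tested. The direction turned on single libraries: 55 members were above 0 with a median of 0.07 without control 1, and 27 with a median of −0.03 without control 2. With library-size scaling 55 were above 0 as well, with a median of 0.062, but the median of all genes then rose to 0.039. The samples of the groups did not overlap in 27 of 75 members (36.0%), against 53.2% of all genes. Of those, 14 were higher and 13 lower in *Ash1L* shRNA samples.

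The fold changes were narrowly spread. Their SD was 0.13 on the log2 scale, against 0.58 for all genes tested. It was 0.34 for the 4801 genes with a mean of at least 50 CPM. This set includes 72 of the members and has no upper limit of expression. In 69 members (92.0%) the change was under 1.2-fold, against 54.8% of all genes and 64.9% of genes of at least 50 CPM. In 69 members (92.0%) the 95% interval of the change also lay inside 1.5-fold in both directions, against 36.9% and 64.3%. Of the genes of at least 50 CPM, UP held 9.12% and DOWN 14.2%. These are descriptions of a list and carry no test.

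**Figure D1:**
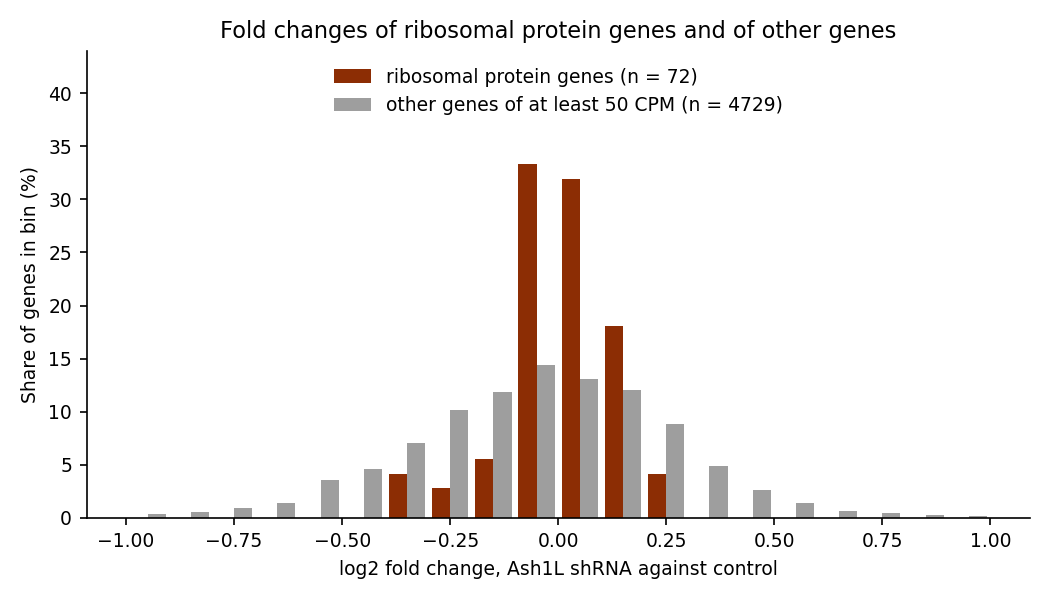
Share of genes (%, vertical axis) by log2 fold change, *Ash1L* shRNA against control, in bins of 0.1 on the log2 scale, for the 72 ribosomal protein genes above 10 CPM (dark) and the 4729 other genes of at least 50 CPM (grey, of which 40 lie beyond the axis). The members fall between −0.39 and 0.27, with 24 in the bin just below 0 and 23 in the bin just above it.

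Differences between the samples of one group were often as large as those between the groups. Control 1 was higher than control 2 in 63 of the 72 members above 10 CPM, by a median of 0.09 on the log2 scale, whereas the median over genes of at least 50 CPM was 0.02. The difference between the controls exceeded the group difference in 49 of the 72. A difference between 2 single samples varies more than one between means of 2, and no share over other genes is given. Regardless of sign, the median difference was 0.09 between the controls, 0.06 between the *Ash1L* shRNA samples and 0.06 between the groups. *Ash1L* shRNA 2 was higher than *Ash1L* shRNA 1 in 28 of the 72, with a median difference of −0.02. *Rps7* had the largest positive difference of control 1 from control 2 (0.31) and *Rpl41* the largest negative one (−0.30). *Rps28* had the largest rise from *Ash1L* shRNA 1 to 2 (0.17) and *Rpl36a* the largest drop (−0.36). Along GC content the control difference fell (Pearson's r −0.35 across 72 genes of the same libraries, which are not independent), and the group difference did not follow it (r −0.01).

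**Figure D2:**
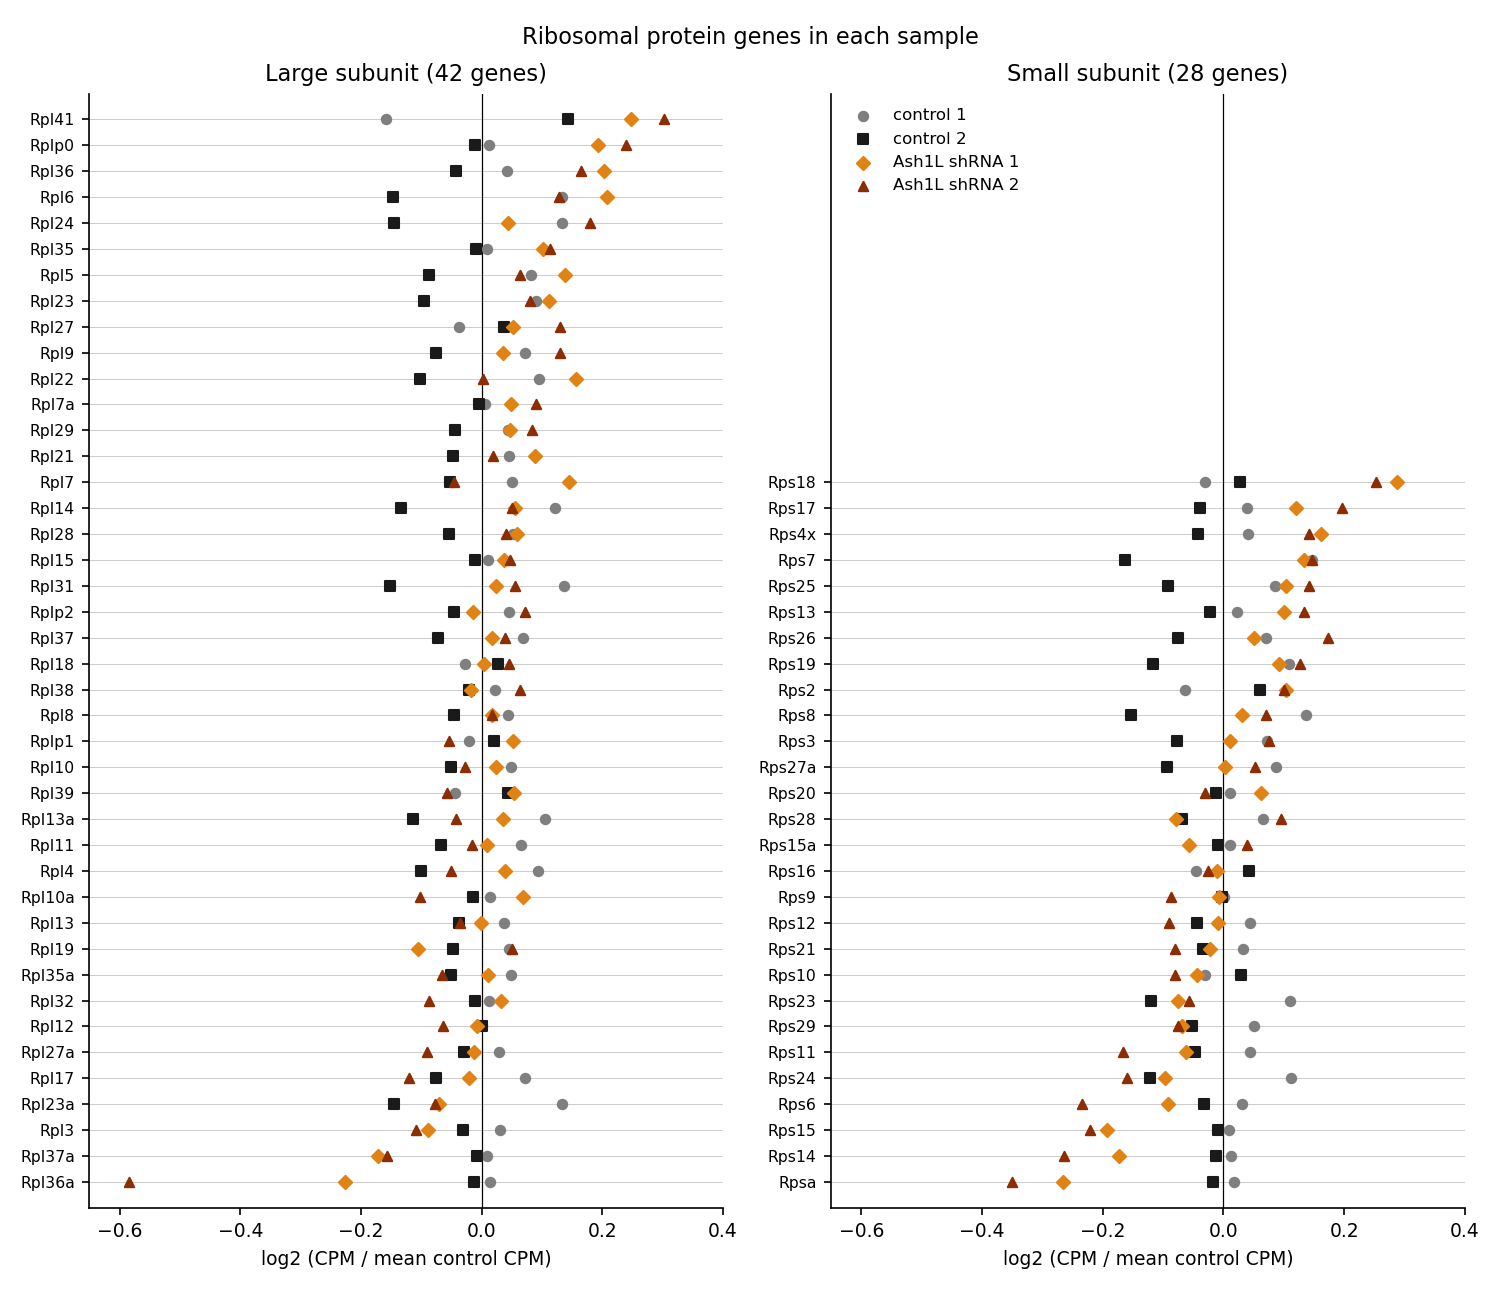
Level in each of the 4 samples of 70 ribosomal protein genes above 10 CPM, as log2 of the CPM over the mean of the 2 controls (horizontal axis), with large subunit genes (42) on the left and small subunit genes (28) on the right, ordered by fold change. Control 1 lies to the right of control 2 in 61 of the 70 genes, and in 26 genes the *Ash1L* shRNA samples lie outside the range of the controls on one side.

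Of the 3 genes that were DOWN, *Rpl36a* and *Rpsa* are described here. *Rpl36a*, a protein at the exit site for transfer RNA on the large subunit, was at 64.8 and 63.6 CPM in controls and 54.9 and 42.8 CPM in *Ash1L* shRNA samples (log2 fold change −0.39, SE 0.15, adjusted p = 0.274 by edgeR). Both knockdown samples were below both controls, and *Ash1L* shRNA 2 was the lower by 0.36. *Rpsa*, which is needed to mature the small subunit and is also known as a laminin receptor precursor, was at 336 and 328 CPM in controls and 276 and 261 CPM in *Ash1L* shRNA samples (−0.31, SE 0.11, adjusted p = 0.263 by edgeR). It was the small subunit gene with the highest mean level over the 4 samples. The knockdown samples were again below both controls. The 3 DOWN calls depended on which samples were kept. They were lost without control 1, without control 2 and without *Ash1L* shRNA 2, but not without *Ash1L* shRNA 1. The log2 fold change of *Rpl36a* was −0.37 without control 1, −0.411 without control 2, −0.588 without *Ash1L* shRNA 1 and −0.223 without *Ash1L* shRNA 2. For *Rpsa* it was −0.28, −0.328, −0.355 and −0.263 in the same order. Both changes were thus largest without *Ash1L* shRNA 1 and smallest without *Ash1L* shRNA 2.

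*Rps18*, a protein of the small subunit's head, was the only member called UP. It was at 114.8 and 119.5 CPM in controls and 143 and 139.6 CPM in *Ash1L* shRNA samples (log2 fold change 0.27, SE 0.11, adjusted p = 0.285 by edgeR), so that both knockdown samples were above both controls. The call was lost without control 1 (0.25), without control 2 (0.29) and without *Ash1L* shRNA 1 (0.25), and with DESeq2 (0.27). *Rpl41*, which encodes a very short peptide, had nearly the same fold change (0.27, SE 0.14) from 204.8 and 252.5 CPM in controls and 271.4 and 281.9 CPM in *Ash1L* shRNA samples. Its controls differed by more than its groups did, and it did not pass the test. Just short of the fold limit on the lower side stood *Rps14* (−0.22) and *Rps15* (−0.21), whose samples did not overlap between the groups and which did not pass the test either.

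Members of the large subunit with known roles were as follows. *Rplp0*, the base of the stalk, was at 233.6 and 229.9 CPM in controls and 264.7 and 273.5 CPM in *Ash1L* shRNA samples (log2 fold change 0.22, SE 0.11, adjusted p = 0.348 by edgeR), without overlap and short of the threshold. Its partners in the stalk did not share this difference in size: *Rplp1* was at 287.9, 296.3, 302.7 and 281.5 CPM in control 1, control 2, *Ash1L* shRNA 1 and 2 (0.00, 95% interval −0.27 to 0.27), and *Rplp2* was at 93.9, 88.1, 90.1 and 95.7 CPM (0.03). *Rpl5* and *Rpl11*, which bind 5S ribosomal RNA and can hold Mdm2, had log2 fold changes of 0.10 and −0.00. *Rpl3* and *Rpl4*, which reach towards the peptidyl transferase centre and the exit tunnel, were the members with the most counts and had log2 fold changes of −0.10 and −0.01. *Rpl10*, which joins the subunit last, in the cytoplasm, had −0.00 (193 to 206.7 CPM over the 4 samples), and *Rpl22*, which has the paralog *Rpl22l1*, had 0.08.

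In the small subunit, 5 further members with known roles had no call. *Rps6*, the substrate of the S6 kinases downstream of mTORC1, was at 115.9 and 110.9 CPM in controls and 106.4 and 96.5 CPM in *Ash1L* shRNA samples (log2 fold change −0.16, SE 0.11, adjusted p = 0.487 by edgeR). Its samples did not overlap between the groups. *Rps4x*, an X-linked small subunit gene, was at 232.3 and 219.3 CPM in controls and 252.6 and 249.2 CPM in *Ash1L* shRNA samples (0.15) and did not overlap either, in the opposite direction. *Rps19*, a gene mutated in Diamond-Blackfan anaemia, had 0.11, *Rps3*, which lies at the mRNA entry, had 0.04, and *Rps27a*, made as a fusion with ubiquitin, had 0.03. None of these genes passed the test.

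**Figure D3:**
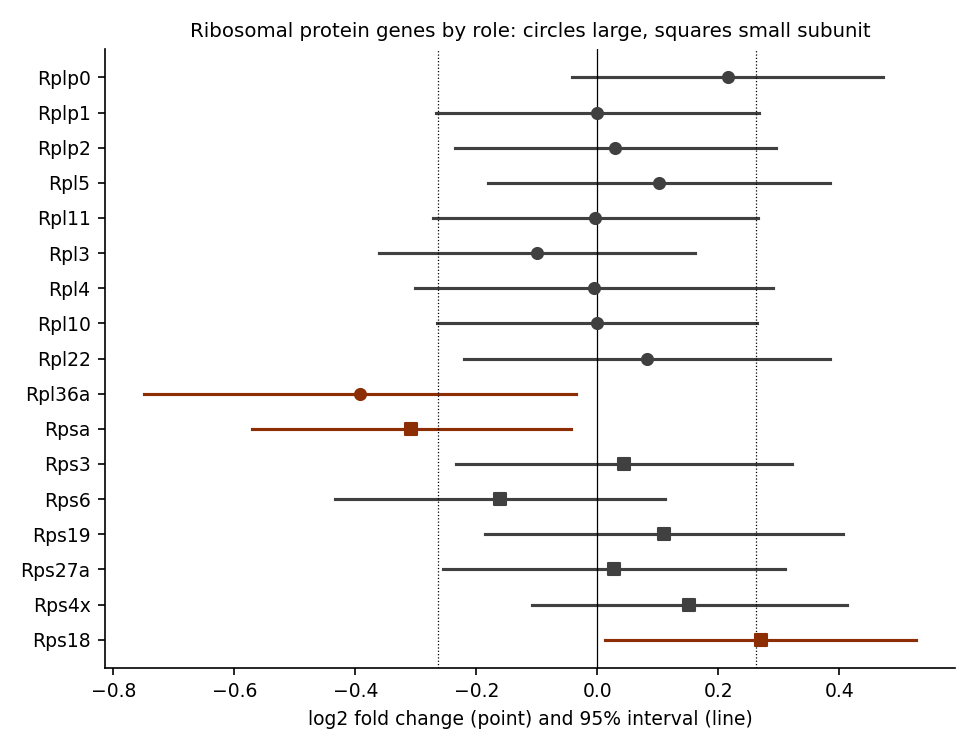
Log2 fold change, *Ash1L* shRNA against control (horizontal axis), with its 95% interval from the fit across all genes, for 17 ribosomal protein genes, of the large (circles) and small subunit (squares), with dotted lines at 1.2-fold. The 3 called genes drawn are in dark red, and the intervals of the other 14 include 0.

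The 2 subunits were then set against each other. The large subunit genes summed to 7915.5 and 7394.2 CPM in controls and 7843.7 and 7688.9 CPM in *Ash1L* shRNA samples, and the small subunit genes to 4930.5 and 4597.3 CPM and to 4719.4 and 4687 CPM. In both sums the knockdown samples lay between the controls. The ratio of large to small was 1.61 and 1.61 in controls (1.61 ± 0.0021, SD, n = 2) and 1.66 and 1.64 in *Ash1L* shRNA samples (1.65 ± 0.015, SD, n = 2). It did not overlap between the groups and differed by 0.04 on the log2 scale, more than the spread within either group, and no test is given at 2 samples a group. Without the gene with the most counts in each subunit, *Rpl4* and *Rpsa*, the ratio was 1.61 and 1.63 in controls and 1.66 and 1.64 in *Ash1L* shRNA samples, and the difference was 0.02. Counted per kilobase of mRNA, the ratio was 1.34 ± 0.011 (SD, n = 2) in controls and 1.37 ± 0.015 (SD, n = 2) in *Ash1L* shRNA samples.

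Gene by gene, the subunits had close medians. Of 45 large subunit genes tested, 0 were UP and 2 were DOWN, 27 had a fold change above 0, and the median log2 fold change was 0.02. Of 30 small subunit genes tested, 1 was UP and 1 was DOWN, 15 had a fold change above 0, and the median was 0.00. Of all genes, 8.61% were UP and 8.28% DOWN. Samples did not overlap between groups in 13 large (28.9%) and 14 small subunit genes (46.7%), against 53.2% of all genes. The SD of the fold changes was 0.12 and 0.14.

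**Figure D4:**
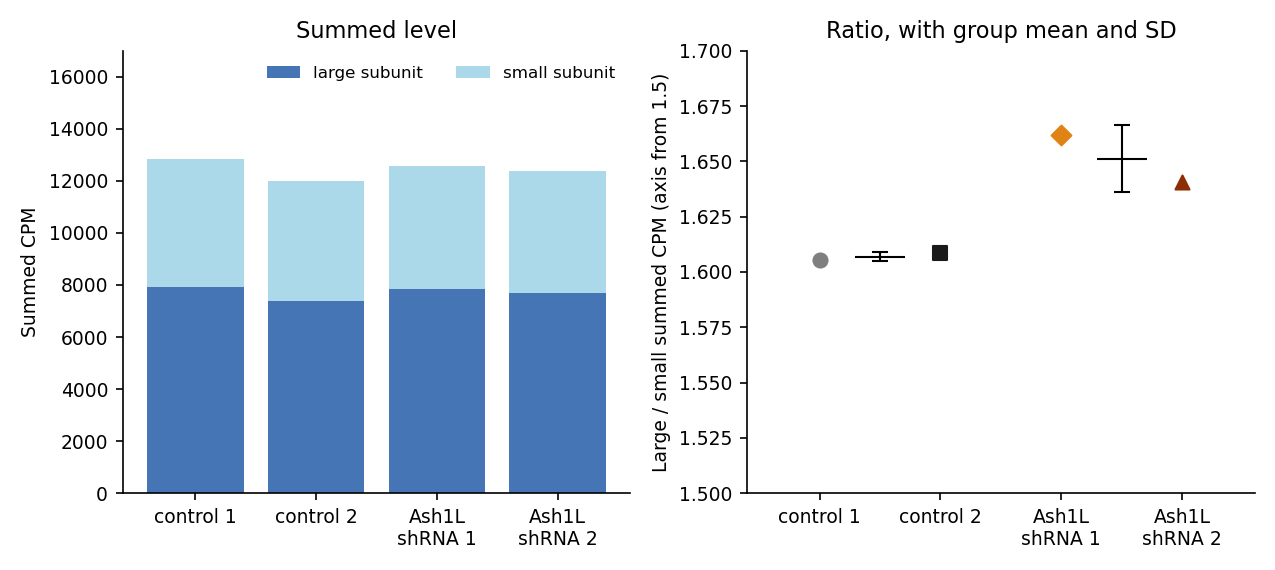
Left, summed CPM of large and small subunit genes stacked for each sample. Right, the ratio of the sums in each sample, with the mean and SD of each group (n = 2) and an axis that starts at 1.5. The stacks reach 11991 to 12846 CPM, and the ratio is 1.61 in both controls and 1.64 and 1.66 in the *Ash1L* shRNA samples.

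The members did not have equal mRNA levels. Per kilobase of mRNA, the median over the 72 members above 10 CPM was 213 CPM per kb in controls, and 57 of the 72 were within 2-fold of it. The 5 highest were *Rpl13a* (740 CPM per kb), *Rps24* (632), *Rplp1* (585), *Rps3* (583) and *Rps29* (545). Next above the 4 members with almost no counts was *Rps20* (30.5 CPM per kb), whose mRNA model is 3706 bases long and makes its value doubtful, followed by *Rpl35* (63.1), *Rps16* (66.7), *Rpl5* (95.3) and *Rpl27* (95.7). The models of *Rpl35* (946 bases), *Rps16* (1109) and *Rpl5* (2045) were also longer than the member median of 623.5 bases, and that of *Rpl27* (614) was not. Before division by length, *Rpl5* was at 194.8 CPM in controls, above the large subunit median of 152.8 CPM. The highest was 24.3 times *Rps20* and 11.7 times *Rpl35*, and both ratios depend on the mRNA models chosen. The order was nearly the same in the *Ash1L* shRNA samples (r = 0.99 between the group means on the log2 scale over the same 72 genes, which share their lengths).

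There were 4 members almost without counts in both groups. *Rpl26* had 0 counts in all 4 samples and was not tested, where 3 counts would have allowed up to 0.213 and 0.0855 CPM in controls and 0.11 and 0.145 CPM in *Ash1L* shRNA samples. *Rpl30* had 6, 18, 11 and 12 counts in control 1, control 2, *Ash1L* shRNA 1 and 2, *Rpl34* had 8, 18, 19 and 8, and *Rps27* had 12, 22, 31 and 12. The other 72 had a control mean of 53.8 to 475 CPM, and no member lay between. At these counts a difference was not detectable: the log2 fold changes of *Rpl30*, *Rpl34* and *Rps27* were 0.02, 0.04 and 0.27 with SEs of 0.55, 0.55 and 0.54.

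Ribosomal protein genes have many retrocopies, which hold the same letters, and a read that lies in such a stretch fits both places. Whether this bears on the near-absent counts was not tested. The coding sequence of *Rps27* (chr3:90212522-90213651, minus strand) is shown by its first 60 bases, because all 252 compared bases were identical in *Rps27rt* (chr9:114982366-114982739, minus), a gene not analysed here. For *Rpl26* (chr11:68901583-68906989, plus) and its processed pseudogene *Gm15772* (chr5:3236431-3236868, plus), 433 of 435 coding bases were identical, and coding bases 118 to 177 hold 1 of the 2 differences, in capitals. Sequences are GENCODE M21 transcripts on GRCm38.
Rps27: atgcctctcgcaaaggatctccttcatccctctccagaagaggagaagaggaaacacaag
Rpl26: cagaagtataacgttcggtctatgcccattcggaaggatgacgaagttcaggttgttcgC
Gm15772: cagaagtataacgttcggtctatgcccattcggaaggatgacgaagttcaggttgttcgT

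*Gm15772* was also at 0 in all 4 samples, and the pseudogene *Rpl34-ps1* had 2, 1, 0 and 0 counts. Over all 76 members, a median of 63.8% of the 50-base stretches of the mRNA also occurred in transcripts of other genes, and 52 members had over 50% shared. This share counts genes that overlap at the same place, on either strand, as well as copies elsewhere. It was 4.1% in *Rps3*, and 95.1% in *Rpl35* and 93.8% in *Rpl5*. Other genes overlapped 66.2% of the exon bases of *Rpl35* and 26.7% of those of *Rpl5*. The share was 71.3% in *Rpl26*, 50.2% in *Rpl30*, 50.6% in *Rpl34* and 83.6% in *Rps27*. Some members with full counts had larger shares than these, but the share does not measure copies alone. Of the called genes, *Rpl36a* was at 85.5%, *Rpsa* at 53.7% and *Rps18* at 83.3%. The multiple-mapping setting of the counting was not known, so the counts of members with copies are uncertain. Over the 72 members above 10 CPM the fold change and the shared percentage had r = 0.11 and rho = 0.17, a description over genes of the same libraries. In 29 members the introns or exons hold small nucleolar RNA genes, 56 in all, and in 37 members another gene overlaps exon bases, where reads could be counted for either.

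Ribosomal proteins whose symbols lie outside the rule had no UP or DOWN call among the 5 tested. Of all genes, 8.61% were UP and 8.28% were DOWN, so few calls would fall in a list of this size. *Fau* (−0.12), *Rps3a1* (0.08) and *Gnb2l1*, the ribosome-bound scaffold also named Rack1 (0.16), did not pass the test. Of the 5 paralogs tested, 1 was UP, where 8.61% of all genes were. *Rps27l*, a paralog of *Rps27* that p53 induces, was at 12.9 and 10.1 CPM in controls and 16.7 and 31.6 CPM in *Ash1L* shRNA samples (1.08, SE 0.32, adjusted p = 0.260 by edgeR), and *Ash1L* shRNA 2 was the highest. *Rpl36al*, the paralog of the DOWN gene *Rpl36a* and a member of both of these lists, was at 33.9 and 33.9 CPM in controls and 34.7 and 45.1 CPM in *Ash1L* shRNA samples (0.23), and *Rpl7l1* (0.15), *Rps4y2* (0.10) and *Rpl22l1* (−0.07) did not pass the test.

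The genes that assemble ribosomes were read as a separate list. Of 75 ribosome biogenesis genes, 11 were UP (8.61% of all genes were) and 0 DOWN, 58 had a fold change above 0, and the median log2 fold change was 0.12. *Pno1*, an assembly factor of the small subunit, was at 19.9 and 17.3 CPM in controls and 31.4 and 32 CPM in *Ash1L* shRNA samples (0.78, SE 0.14, adjusted p = 0.240 by edgeR). *Fbl*, the methyltransferase of box C/D particles, was at 14.1 and 16.5 CPM against 19.5 and 24 CPM (0.50), and *Rrn3*, which brings RNA polymerase I to its promoter, at 89.1 and 95.8 CPM against 109.5 and 124.9 CPM (0.34). In all 3 both knockdown samples were above both controls. The others were *Polr1d*, *Utp20*, *Nop14*, *Bms1*, *Gnl3*, *Rsl24d1*, *Rsl1d1* and *Eif6*. The list's members with most counts, *Gnl3l* (−0.19), *Mdn1* (0.09), *Ncl* (0.23) and *Npm1* (0.17), did not pass the test.

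For the next lists too, 8.61% of all genes were UP and 8.28% DOWN. Of 15 chaperones and importins of ribosomal proteins, 1 was UP, *Tnpo1* (128.1 and 102.9 CPM in controls, 149.5 and 193.5 CPM in *Ash1L* shRNA samples, log2 fold change 0.57), and the median was 0.21. Of 40 translation factors, 4 were UP and 1 was DOWN, with a median of 0.09. The UP genes were *Eif2s1* (0.43) and *Eif2s2* (0.61), 2 of the subunits of the factor that delivers initiator transfer RNA, *Eif6* (0.43), which keeps the subunits apart, and *Pabpc4* (0.58), a poly(A)-binding protein. *Eif4b*, a helper of the initiation helicase and a TOP mRNA, was DOWN (275.4 and 292.8 CPM in controls, 242.2 and 170.2 CPM in *Ash1L* shRNA samples, −0.46). It was the one call among 21 other TOP mRNAs, whose median was 0.02, and the elongation factors *Eef1a1* (−0.03) and *Eef2* (−0.13) did not pass the test. Among 25 regulators of mTORC1 and of TOP mRNAs, *Rheb* (0.40), *Eif4ebp1* (0.87), *Larp4* (0.43) and *Lamtor3* (0.50) were UP and *Tsc1* (−0.30) was DOWN, with a median of 0.08. *Mtor* (−0.25) and *Larp1* (−0.26) did not pass the test. That these lists differ from the ribosomal protein genes was not tested.

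**Figure D5:**
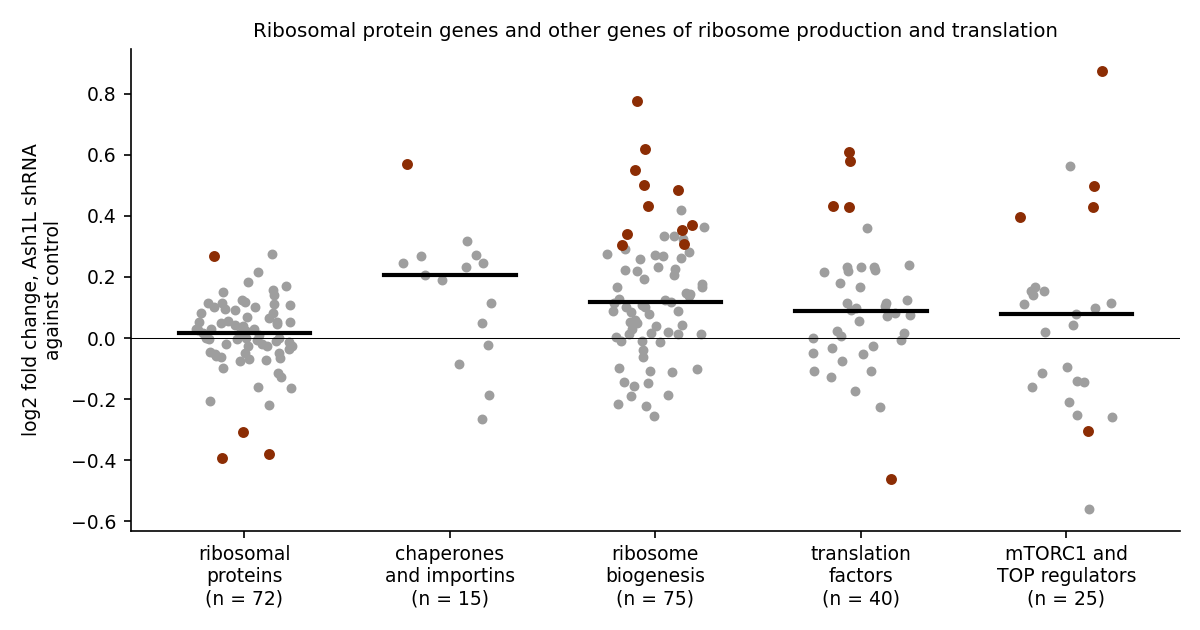
Log2 fold change, *Ash1L* shRNA against control (vertical axis), of each gene tested in 5 lists, with called genes in dark red and the median of each list as a bar. The 72 ribosomal protein genes above 10 CPM lie between −0.39 and 0.27, and the 75 ribosome biogenesis genes between −0.26 and 0.78.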

How the data were processed

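RNA-seq of 4 mouse PFC samples was used, 2 control and 2 *Ash1L* shRNA, grouped by their labels. The authors deposited whole-number counts for each gene symbol, made with RNA STAR on mm10 and featureCounts. The labels instead name TopHat2, and strand and multiple-mapping settings are not given in the sources used here. Genes were filtered with filterByExpr, scaled by TMM and tested with edgeR's quasi-likelihood test (edgeR 4.0.16, R 4.3.3; robust glmQLFit, glmQLFTest), with Benjamini-Hochberg adjustment over 16232 genes. SEs were the log2 fold change over the square root of F. DESeq2 1.42.0 was an alternative. Depth was 14251190 to 35764874 counts. The fit was run on simulated data whose planted changes were larger than those of the members. That run does not show how the fit treats changes as small as theirs. The labels call the samples biological duplicates and do not say how mice were assigned. The study's reporting summary states that assignment to the shRNA groups was random. The p-values measure the spread between these samples, with the variance of each gene estimated in part from that of all genes. CPM per kb used the shortest GENCODE M21 basic transcript with the longest coding sequence.

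The members and lists were chosen with earlier results of these data known. Genes were named by rule: called members, members with a known role, the 5 highest and 5 lowest per kb, ends of ranges and, of other lists, the 4 with most counts and calls. *Rpl41*, *Rps14*, *Rps15* and the next lowest per kb, the genes named in the copy sequences, and *Fbl*, *Rrn3* and *Pno1* among the 11 biogenesis calls were picked after their values were seen. Alternatives were other scalings and filters, length and GC offsets, the replicate number as a block, each sample left out and a 1.5-fold limit. Some genes are not reported here by name, and counts and medians over the lists include them.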

Additional observations from a re-analysis of the deposited data

How the results depend on the processing

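The median log2 fold change of all genes moved by less than 0.1 under every scaling run, and the member medians stayed within the spread between samples except when a sample was left out. As reported, 1 member was UP and 3 were DOWN, where 8.61% and 8.28% of all genes were. UP was 0 with the replicate block (6.48% of all genes) and 0 with the replicate block and length offset (7.35%). It was 0 with DESeq2 (6.16%) and 0 at a 1.5-fold limit, for which no share over all genes is given. With the GC offset it was 4 (*Rpl36*, *Rpl41*, *Rplp0*, *Rps18*), where 8.85% of all genes were UP. DOWN was 0 at the 1.5-fold limit and 2 with the replicate block, where *Rpsa* lost its call, and 4 with the length offset. Over all genes, DOWN held 6.28% with the replicate block and 7.71% with the length offset. Leaving out each sample in turn gave medians of −0.032 to 0.072 for all members, −0.024 to 0.0802 for the large and −0.0435 to 0.0456 for the small subunit. The lone sample of a group is then assumed to vary like the others. The higher median came without control 1 and the lower without control 2. The log2 difference of the ratio of large to small was 0.0213 without *Rpl4* and *Rpsa*. Same-numbered samples deviated with a correlation of −0.11. In groups of 2 samples the deviations mirror each other, so this value cannot show whether same-numbered samples were handled together. Whether the replicate block is the better fit was not tested. A crossed pairing, chosen after seeing the data, gave 1 UP and 3 DOWN, where 9.49% and 10.7% of all genes were. The cause of these changes was not tested. The 0 to 31 counts of *Rpl26*, *Rpl30*, *Rpl34* and *Rps27* could not show a change of the size seen elsewhere.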
